A study of Homo sapiens with 18 samples.

Results

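Poly(A) RNA was compared between 2 derivatives of the colorectal adenocarcinoma line DLD1, an established human line, that carry different CRISPR guides against the same gene. The libraries sgZ1 (guide 1) and sgZ3 (guide 3) are both labelled as knockouts of ZNF692, and they were set against each other directly, over all expressed genes. They make up 6 of the 18 samples of the study, 3 libraries for each guide, out of 9 poly(A) libraries. The remaining 3 poly(A) libraries, sgC, carry a control guide and a wild-type label, and enter no test here. Their levels are given only to show where the control lay. All of these cells had been infected with lentivirus, put under 10 µg/ml puromycin from 48 h after the virus was added, and grown in DMEM with 5% fetal bovine serum. The labels do not say whether a derivative is 1 clone or a pool, or whether the 3 libraries of a guide came from separate cultures. The p-values therefore measure the spread between these libraries, which may be technical.

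ZNF692, also called AREBP, is a nuclear protein with C2H2 zinc fingers, the DNA-binding module of the largest family of human transcription factors. A CRISPR guide directs the Cas9 nuclease to a matching site, and faulty repair of the cut can shift the reading frame. The transcript often stays detectable after such a frameshift, so its level alone does not report whether protein is made. Derivatives made with different guides against 1 gene are commonly set side by side, since they share the target but not the cut site, nor the later history of the cells. DLD1 itself is known for loss of APC, which leaves Wnt signalling switched on, and for loss of the mismatch repair protein MSH6.

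The 9 poly(A) libraries held 16044224 to 24535642 counts. Of 47021 genes in the table, 14335 passed the filter on low counts in the 6 libraries and were tested. Levels are given as CPM, counts scaled to a common library size with TMM factors, in the order of replicates 1, 2 and 3. Sums over 13 markers of colorectal epithelium were 8785 to 9644 CPM in sgZ1 and 10926 to 11788 CPM in sgZ3, and 11 or 12 of them were above 1 CPM in each library. Markers of leukocytes (11 genes) summed to 4.79 to 6.73 CPM over the 6 libraries and those of endothelium (8 genes) to 8.53 to 10.0 CPM. PTPRC, CD3D, MS4A1, CD68, NKG7 and EMCN were at 0 in all 6. The sums came mostly from CD14, at 4.33 to 5.82 CPM, and from ESAM and VWF, at 5.50 to 6.53 and 1.51 to 2.55 CPM. KDR, an endothelial marker, was at 0, 0.938 and 0.147 CPM in sgZ1 and 0, 0 and 1.42 CPM in sgZ3.

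Replicate 2 of sgZ1 and replicate 3 of sgZ3 stood apart from the other 2 libraries of their guide. The first principal component of the 6 libraries carried 74.5% of the variance, and placed these 2 libraries nearest to the middle, at −28.3 and 21.7, while the others lay at −42.8 and −42.5 (sgZ1) and at 45.9 and 46.0 (sgZ3). Both held some mesenchymal transcripts at a higher level than the other 2 libraries of their guide. VIM, an intermediate filament that mesenchymal cells carry, was at 0.606, 22.8 and 0.492 CPM in sgZ1 and 0.135, 0.108 and 21.1 CPM in sgZ3. SPARC, a secreted matrix protein, was at 3.73, 64.1 and 4.97 CPM and 5.33, 5.89 and 66.7 CPM. Summed over 28 fibroblast and mesenchymal markers, the level was 175, 320.2 and 209 CPM in sgZ1 and 117, 123 and 268 CPM in sgZ3. Not all of these markers rose in both. S100A4 was at 76.2, 75.4 and 95.7 CPM in sgZ1 and 75.4, 76.3 and 44.0 CPM in sgZ3. TWIST1 was at 1.30, 0.449 and 0.295 CPM and 0.202, 0.0540 and 0.354 CPM. DCN was at 0 in all 6 libraries, and COL1A2, LUM and FAP stayed under 0.1 CPM. None of the 13 markers that could be tested differed at an adjusted p below 0.05 in edgeR's quasi-likelihood test or at an unadjusted p below 0.05, and their median log2 fold change was −0.14. DESeq2 called 0 of the 13 and limma voom 1, higher in sgZ1. Without replicate 3 of sgZ3, 4 were higher in sgZ1, and with 2 against 2 libraries 6 of 11 were. Of all genes tested, DESeq2 called 9.88% higher in sgZ3 and 13% higher in sgZ1, limma voom 8.64% and 11.4%, and edgeR 15.3% and 19% without replicate 3 of sgZ3. COL6A1 and COL6A2, subunits of collagen VI, had another pattern. COL6A1 was at 30.8, 38.4 and 36.2 CPM in sgZ1 and 0.540, 0.378 and 19.96 CPM in sgZ3, so the sgZ1 level was high in every library and the sgZ3 level high in replicate 3 alone. In bulk RNA, fewer cells of a type and less RNA per cell cannot be told apart. The comparison of 2 against 2 libraries leaves both of these libraries out. It called 25.2% of all genes higher in sgZ3 and 29.2% higher in sgZ1, and every count given below for 2 against 2 libraries is to be read against these shares.

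The derivatives differed widely, and most of the differences of at least 2-fold were higher in sgZ1. A gene is said to differ when its adjusted p (edgeR's quasi-likelihood test, Benjamini-Hochberg) is below 0.05, and fold changes are sgZ3 over sgZ1. Of the 14335 genes tested, 3033 (21.2%) differed, 1314 (9.17%) higher in sgZ3 and 1719 (12%) higher in sgZ1. Counts over gene lists below are to be read against these shares, unless another comparison is named. With a fold change of at least 2 as well, 974 genes (6.79%) remained, and 73 of them (0.509%) were higher in sgZ3 against 901 (6.29%) higher in sgZ1. The median size of the log2 fold change was 0.547 among the genes higher in sgZ3 and 1.05 among those higher in sgZ1, while the median over all genes tested was 0.00275. The libraries of the guides did not overlap for 2503 genes (17.5%) with sgZ3 above and for 2670 genes (18.6%) with sgZ1 above.

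The balance in number depended on the scaling, and the excess of large differences in sgZ1 did not turn under any scaling tried. With library totals in place of TMM factors, 741 genes (5.17%) were higher in sgZ3 and 2221 (15.5%) in sgZ1, and the median over all genes moved to −0.118. Leaving out the libraries that stood apart raised the count to 7829 genes, 3629 higher in sgZ3 and 4200 in sgZ1, with 205 and 1596 of them at least 2-fold. Without replicate 1 of sgZ1 it dropped to 1262 genes, without replicate 3 of sgZ1 to 1477, and without replicate 1 or 2 of sgZ3 to 1591 or 1462. It rose to 5020 without replicate 3 of sgZ3. In all, 1132 of the 3033 genes kept their call in each of the 6 comparisons that left out 1 library, 351 of those higher in sgZ3 and 781 of those higher in sgZ1.

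**Figure D1:**
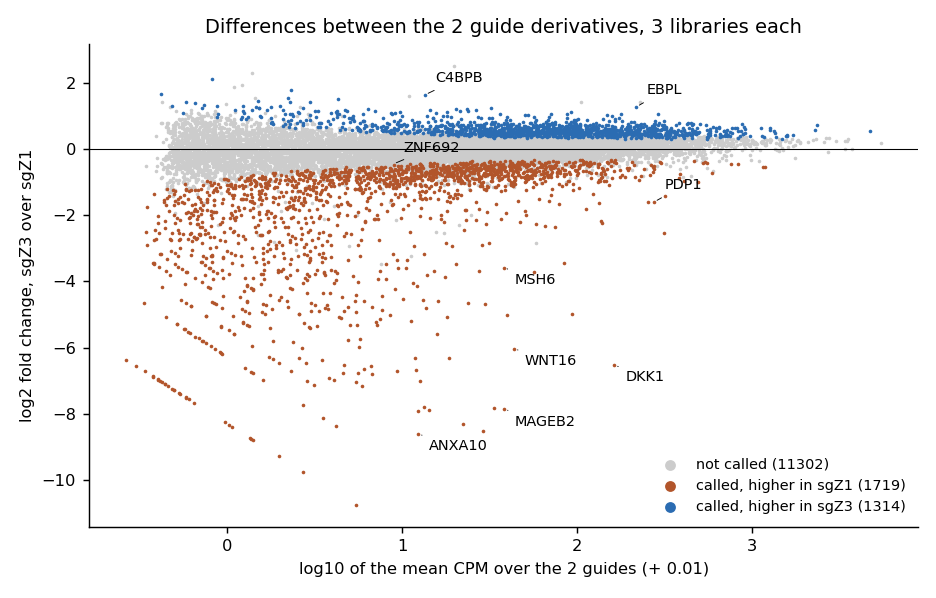
Each point is 1 of 14335 genes tested, with its mean level over the 6 libraries on the horizontal axis (log10 of CPM + 0.01) and its log2 fold change, sgZ3 over sgZ1, on the vertical axis. Coloured points are the 1314 genes higher in sgZ3 and the 1719 higher in sgZ1 at an adjusted p below 0.05. Most differences of at least 2-fold are below the zero line, and the labelled genes above it, such as C4BPB, stay under a log2 fold change of 2.

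ZNF692 itself was detected in every library and its difference did not pass the test. The gene spans 248850006 to 248859144 on chromosome 1 (GRCh38, minus strand). It was at 9.64, 9.81 and 11.5 CPM in sgZ1 and 7.89, 8.05 and 6.28 CPM in sgZ3. The sgZ1 libraries were thus all above the sgZ3 libraries. In sgC it was at 7.05, 6.35 and 6.21 CPM, so neither derivative showed less of the transcript than the lowest control library. The log2 fold change was -0.46 (SE 0.17, edgeR adjusted p = 0.0708). Over the alternatives run the edgeR adjusted p was 0.02 (2 against 2 libraries) to 0.226 (without replicate 3 of sgZ1), and the fold change was negative in each. The part of the transcript that each guide cuts was not analysed here, so the level checks neither label.

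A set of 112 genes (0.781% of those tested) was above 2 CPM in every sgZ1 library and below 0.5 CPM in every sgZ3 library. No gene met the same rule the other way round. These genes were chosen by their levels in both guides, so no test is given for the set. Of the 112, 108 are protein-coding genes, and 87 were also below 0.5 CPM in all 3 sgC libraries. The set holds ALDOA and PTP4A1, whose counts are far below what is usual for them, so their values are not read as their expression.

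MAGEB2, a cancer-testis gene that is normally transcribed in testis, was at 71.7, 83.9 and 73.3 CPM in sgZ1 and 0.202, 0.324 and 0.405 CPM in sgZ3 (log2 fold change -7.86, SE 0.21, edgeR adjusted p = 7.18e-09). GTSF1, a factor of the piRNA pathway that silences transposons in germ cells, was at 57.6, 72.2 and 69.6 CPM and 0.270, 0.270 and 0.304 CPM. Both were thus near 0 in every sgZ3 library, and sgC lay at 0.440, 0.0538 and 0.0857 CPM for MAGEB2 and 0.294, 0.215 and 0.0857 CPM for GTSF1. NTSR1, the receptor for the gut peptide neurotensin, was at 63, 39.8 and 70.9 CPM and 0.202, 0.216 and 0.0507 CPM. HTR7, a serotonin receptor, was at 26.9, 28.9 and 29 CPM and 0, 0.162 and 0.152 CPM. Neither receptor reached 0.3 CPM in any sgC library. SLC38A5, a transporter of glutamine and other neutral amino acids, was at 37.6, 47.6 and 48.2 CPM and 0.202, 0 and 0.203 CPM. CD109, a membrane protein that binds TGF-beta receptors, was at 30.7, 21.9 and 27 CPM and 0, 0 and 0.304 CPM. The calls of these genes held under every alternative run. Since the rule chose them by their levels in the same libraries, neither this nor the adjusted p of MAGEB2 adds support.

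Promoters of 4 of these genes are printed with those of C4BPB and IL1R2, which are among the genes most increased in sgZ3, to show the content of CG dinucleotides at the starts of genes of both directions. CG dinucleotides are the sites that vertebrate cells methylate. Each line gives the 250 bases before the annotated start, 5′ to 3′ on the gene's strand, from RefSeq on GRCh38.p14, and capitals mark each CG.
MAGEB2 (chrX:30215313-30215562, plus strand): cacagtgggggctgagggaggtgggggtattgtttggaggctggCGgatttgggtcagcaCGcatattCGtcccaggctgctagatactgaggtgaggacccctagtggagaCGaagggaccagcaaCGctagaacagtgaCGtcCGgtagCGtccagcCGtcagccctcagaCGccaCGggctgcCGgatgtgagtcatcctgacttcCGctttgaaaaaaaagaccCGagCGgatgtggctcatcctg
GTSF1 (chr12:54473603-54473852, minus strand): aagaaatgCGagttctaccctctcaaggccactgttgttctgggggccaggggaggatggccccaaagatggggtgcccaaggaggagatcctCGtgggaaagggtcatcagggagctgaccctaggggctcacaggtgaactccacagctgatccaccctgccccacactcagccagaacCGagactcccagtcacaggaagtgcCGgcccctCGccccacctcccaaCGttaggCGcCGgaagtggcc
NTSR1 (chr20:62708586-62708835, plus strand): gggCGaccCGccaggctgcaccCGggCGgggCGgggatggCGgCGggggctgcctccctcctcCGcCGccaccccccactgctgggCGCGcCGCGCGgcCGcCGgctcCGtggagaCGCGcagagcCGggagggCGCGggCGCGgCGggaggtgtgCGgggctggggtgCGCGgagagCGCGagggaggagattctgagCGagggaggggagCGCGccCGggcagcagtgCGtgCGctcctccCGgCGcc
HTR7 (chr10:90858040-90858289, minus strand): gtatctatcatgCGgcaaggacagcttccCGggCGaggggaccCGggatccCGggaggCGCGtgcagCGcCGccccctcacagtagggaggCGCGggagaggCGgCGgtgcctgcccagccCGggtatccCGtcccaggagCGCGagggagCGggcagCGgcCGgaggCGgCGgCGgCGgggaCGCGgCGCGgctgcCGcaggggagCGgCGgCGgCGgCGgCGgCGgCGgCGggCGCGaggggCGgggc
C4BPB (chr1:207088610-207088859, plus strand): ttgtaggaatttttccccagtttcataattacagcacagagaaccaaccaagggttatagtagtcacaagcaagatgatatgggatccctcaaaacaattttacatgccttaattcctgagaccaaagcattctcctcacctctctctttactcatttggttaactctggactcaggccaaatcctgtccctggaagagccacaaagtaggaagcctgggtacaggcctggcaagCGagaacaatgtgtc
IL1R2 (chr2:101998711-101998960, plus strand): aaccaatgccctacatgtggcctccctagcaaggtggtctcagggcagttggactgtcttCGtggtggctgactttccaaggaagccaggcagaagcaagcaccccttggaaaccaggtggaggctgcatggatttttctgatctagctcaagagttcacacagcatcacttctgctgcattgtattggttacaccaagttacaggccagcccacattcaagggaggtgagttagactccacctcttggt

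The window held 15 CG in MAGEB2, 8 in GTSF1, 38 in NTSR1 and 41 in HTR7, so the genes near 0 in sgZ3 had both CG-poor and CG-rich starts. It held 1 CG in C4BPB and 1 in IL1R2. Over all genes tested, 10688 of 14334 symbols matched a RefSeq promoter, the median was 21 CG and 84.9% had at least 10. For the 112 genes present in sgZ1 and near 0 in sgZ3, 78 matched, with a median of 16.5 CG and 67.9% with at least 10. For the genes at least 2-fold higher in sgZ1 (626 of 901 matched) the median was 20 CG and the share 77%. For those at least 2-fold higher in sgZ3 (51 of 73 matched) the median was 6 CG and the share 47.1%. The AP-1 motif TGANTCA, searched on both strands, was in 3.9% of the windows of all genes tested, 3.85% of the 112, 3.67% of the genes at least 2-fold higher in sgZ1 and 5.88% of those at least 2-fold higher in sgZ3. DNA methylation was not measured in these libraries.

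NPW and DIRAS1 are further genes of the set. NPW, which encodes the signalling peptide neuropeptide W, was at 25, 18.2 and 30.6 CPM in sgZ1 and 0.0675, 0.108 and 0.101 CPM in sgZ3. DIRAS1, a small GTPase of the Ras family, was at 24, 21.9 and 25.9 CPM and 0.270, 0 and 0.405 CPM. KCNH3, a potassium channel, was at 36.5, 32.2 and 41.4 CPM and 0.135, 0.324 and 0.811 CPM, and its highest sgZ3 library places it outside the set. For each of these 3 genes the lowest sgZ1 library was far above the highest sgZ3 library. ANXA10, an annexin of gastric epithelium, had the lowest log2 fold change among the genes that differed with a mean of at least 10 CPM. It was at 22, 27 and 24.9 CPM in sgZ1 and 0, 0.108 and 0.0507 CPM in sgZ3, and at 0 in all 3 sgC libraries. From 1641 counts against 3, its ratio was 438, with a 95% interval of 150 to 2130 that covers counting error only. M1AP, a meiosis gene below that level named after its values were seen, had 714 counts in sgZ1 and 0 in sgZ3. It was at least 191-fold higher in sgZ1, against a floor of 3 counts over the sgZ3 group. RUNX3, a transcription factor of the RUNX family also named after its values were seen, was at 9.41, 8.09 and 11.5 CPM and 0.337, 0 and 0.203 CPM, and at 0.294, 0.215 and 0.0429 CPM in sgC. CD40, a receptor of the TNF family named in the same way, was at 6.80, 7.64 and 9.88 CPM and 0.202, 0 and 0 CPM.

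The level in sgC lay nearer to sgZ3 for most of the genes that were higher in sgZ1. On the scale of the mean log2 CPM, sgC was nearer to sgZ3 for 1048 of the 1719 genes higher in sgZ1 (61%), for 705 of the 901 at least 2-fold higher (78.2%) and for 111 of the 112 genes present in sgZ1 and near 0 in sgZ3. For the genes higher in sgZ3 it was nearer to sgZ1, with 426 of 1314 (32.4%) nearer to sgZ3, and 24 of the 73 at least 2-fold higher (32.9%). In both directions, then, the derivative with the higher level was more often the one farther from the control. These counts describe the genes and carry no test, since the same sgZ1 and sgZ3 libraries chose them.

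**Figure D2:**
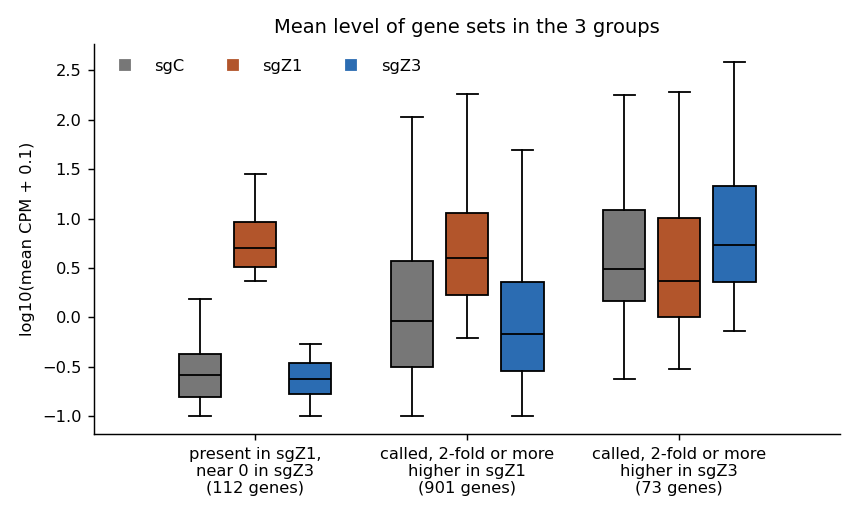
Boxes show the mean level over 3 libraries (log10 of mean CPM + 0.1) in sgC, sgZ1 and sgZ3 for the 112 genes present in sgZ1 and near 0 in sgZ3, the 901 genes at least 2-fold higher in sgZ1 and the 73 at least 2-fold higher in sgZ3. The box spans the quartiles, the line is the median, and whiskers reach 1.5 times the box length. In the first 2 sets the sgC box lies beside that of sgZ3, and in the last beside that of sgZ1.

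Cancer-testis and germline genes are normally silent outside the gonads, and most of those that could be tested were higher in sgZ1. Of 89 listed, 16 were expressed enough to test, and 9 were higher in sgZ1 and 1 in sgZ3, with a median log2 fold change of −2.33. These counts stand beside 12% and 9.17% of all genes tested, and give no test of the list. MAGEB2, GTSF1, MAGEA2 and CSAG3, for example, passed the filter on low counts only through the sgZ1 libraries, where they are high. Their direction was thus set by the filter. The same holds below for every listed gene that only the sgZ1 libraries carried past the filter. Among the MAGE genes, 5 of 6 tested were higher in sgZ1. MAGEA3 was at 68.4, 85.3 and 76.5 CPM in sgZ1 and 2.63, 1.13 and 3.29 CPM in sgZ3, with the caveat that MAGEA3 and the pair MAGEA2 and MAGEA2B have near-identical copies among which reads may be split. PRAME, a tumour antigen, was at 13.5, 15 and 13 CPM and 1.35, 0.594 and 1.27 CPM (edgeR adjusted p = 3.79e-06). The exception was NANOS1, an RNA-binding factor of germ cells, at 2.52, 2.57 and 2.51 CPM and 5.67, 5.51 and 4.71 CPM (log2 fold change 1.07, SE 0.18, edgeR adjusted p = 0.00223). Of the 10 calls, 7 held in each comparison that left out 1 library, and without the libraries that stood apart the count was again 9 against 1, of 15 tested.

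DNMT3B, a de novo DNA methyltransferase, was at 9.36, 8.13 and 11.5 CPM in sgZ1, 3.17, 2.38 and 2.74 CPM in sgZ3 and 3.57, 4.09 and 3.34 CPM in sgC (log2 fold change -1.80, SE 0.20, edgeR adjusted p = 0.000123). Every sgZ1 library was above every sgZ3 and sgC library. Of 19 tested genes for writing, keeping and removing DNA methylation and for silencing, 2 were higher in sgZ1 and none in sgZ3, which for sgZ1 is a share of 10.5%, near the 12% of all genes. The count higher in sgZ1 was 12 with 2 against 2 libraries and 5 with length and GC offsets, beside 0 and 1 higher in sgZ3. The other call was that of CDCA7, whose call was lost without replicate 1 of sgZ1 (edgeR adjusted p = 0.0655) and without replicate 1 or 2 of sgZ3 (0.0667 and 0.0853). Of the 29 HOX genes tested, 6 were higher in sgZ1 and none in sgZ3, and 3 of these were among the 6 tested HOXC genes. The HOX count with 2 against 2 libraries was 9 higher in sgZ1 and 2 in sgZ3, of 28. HOXC9, a positional transcription factor, was low in both, at 1.44, 1.31 and 1.72 CPM in sgZ1 and 0.135, 0.0540 and 0.203 CPM in sgZ3. HOXD8 was at 2.38, 2.08 and 2.26 CPM and 1.01, 0.649 and 0.709 CPM. None of 9 HOXB genes passed edgeR's test, DESeq2 or limma voom, and 0 had an unadjusted p below 0.05. In 2 against 2 libraries 1 HOXB gene was higher in sgZ1. HOXC9, HOXC13 and HOXD8 kept their calls in each comparison that left out 1 library. HOXC9 passed the filter on low counts only through the sgZ1 libraries, so its direction was set by the filter and its held call adds no support. Of 13 imprinted genes, 5 differed, 2 higher in sgZ3 and 3 higher in sgZ1, and none of the 5 held in every comparison that left out 1 library. The imprinted count with 2 against 2 libraries was 2 higher in sgZ3 and 6 in sgZ1, of 12.

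Among Wnt genes, the secreted antagonist DKK1 and the ligand WNT16 were far higher in sgZ1, and several target genes were modestly higher in sgZ3. DKK1, a secreted inhibitor that binds the LRP co-receptors, was at 290.0, 380.4 and 299.6 CPM in sgZ1 and 0.742, 1.03 and 8.26 CPM in sgZ3 (log2 fold change -6.52, SE 0.93, edgeR adjusted p = 0.0129). Replicate 3 of sgZ3 was thus several times above replicates 1 and 2 and still far below sgZ1. The call was lost without replicate 1 of sgZ1 (adjusted p = 0.0628 in edgeR), without replicate 1 or 2 of sgZ3 (0.0569 and 0.0598) and with the replicate number as a block (0.0935). In sgC DKK1 was at 0.343, 0.269 and 0.686 CPM. WNT16, a ligand, was at 88.9, 89.2 and 80.01 CPM in sgZ1 and 1.01, 1.68 and 1.17 CPM in sgZ3 (log2 fold change -6.03, SE 0.18, edgeR adjusted p = 2e-08). ROR2, a receptor tyrosine kinase for Wnt ligands, was at 7.13, 6.62 and 9.34 CPM and 0.607, 0.162 and 0.608 CPM. WNT10A, another ligand, went the other way, at 12.2, 12.8 and 13.4 CPM and 18.8, 22.5 and 21.4 CPM. Of the 50 Wnt genes tested, 6 were higher in sgZ3 and 7 in sgZ1. Together these were 26% of the list, near the 21.2% of all genes tested. Of these calls 5 held in each comparison that left out 1 library. The Wnt count with 2 against 2 libraries was 9 and 15.

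Of the 14 tested genes that Wnt signalling is known to induce, 4 were higher in sgZ3 and none in sgZ1, with a median log2 fold change of 0.202. ASCL2, the transcription factor of intestinal stem cells, was at 103, 109 and 108 CPM in sgZ1 and 220.5, 241 and 172 CPM in sgZ3, a log2 fold change of 1.00 (SE 0.14, edgeR adjusted p = 0.000623). TNFRSF19, a TNF-family receptor also called TROY, was at 152, 170.0 and 137 CPM and 275, 258 and 269 CPM. Both kept their calls in every alternative. Without the libraries that stood apart, 4 of the 14 were higher in sgZ3 and 4 in sgZ1, so the one-sided count did not hold there. Of the 5 nuclear factors of the pathway, 3 were higher in sgZ1. TCF7L2, the main partner of beta-catenin in the gut, was at 64.6, 39 and 66.8 CPM and 22.7, 23.1 and 33.7 CPM (edgeR adjusted p = 0.00616), and its call was lost without replicate 1 or 3 of sgZ1 (0.0526 and 0.0592).

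MSH6, which takes part in recognising mismatched bases, was at 67.3, 69.5 and 74.6 CPM in sgZ1, 4.39, 4.43 and 8.51 CPM in sgZ3 and 6.56, 9.52 and 6.90 CPM in sgC (log2 fold change -3.58, SE 0.23, edgeR adjusted p = 2.03e-06). All 3 sgZ1 libraries were above the range of the others. The call held under every alternative. Of the 13 mismatch repair genes tested, 2 were higher in sgZ3 and 2 in sgZ1, and the calls of the other 3, PMS2 and PCNA among them, were each lost without replicate 1 or 3 of sgZ1 and without replicate 1 or 2 of sgZ3, with edgeR adjusted p of at most 0.16. That of PCNA was also lost with library totals (0.0705). Of the 13, 2 were higher in sgZ3 and 5 in sgZ1 with 2 against 2 libraries. CDKN2A, the locus of the cell-cycle inhibitor p16, was at 32.3, 35.9 and 36.8 CPM in sgZ1, 1.15, 0.703 and 1.22 CPM in sgZ3 and 1.81, 3.17 and 2.40 CPM in sgC (log2 fold change -5.08, SE 0.20, edgeR adjusted p = 1.48e-07). Its neighbour CDKN2B, which encodes p15, differed less, at 8.29, 8.70 and 8.65 CPM and 4.39, 4.49 and 5.22 CPM (log2 fold change -0.85, edgeR adjusted p = 0.00404).

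**Figure D3:**
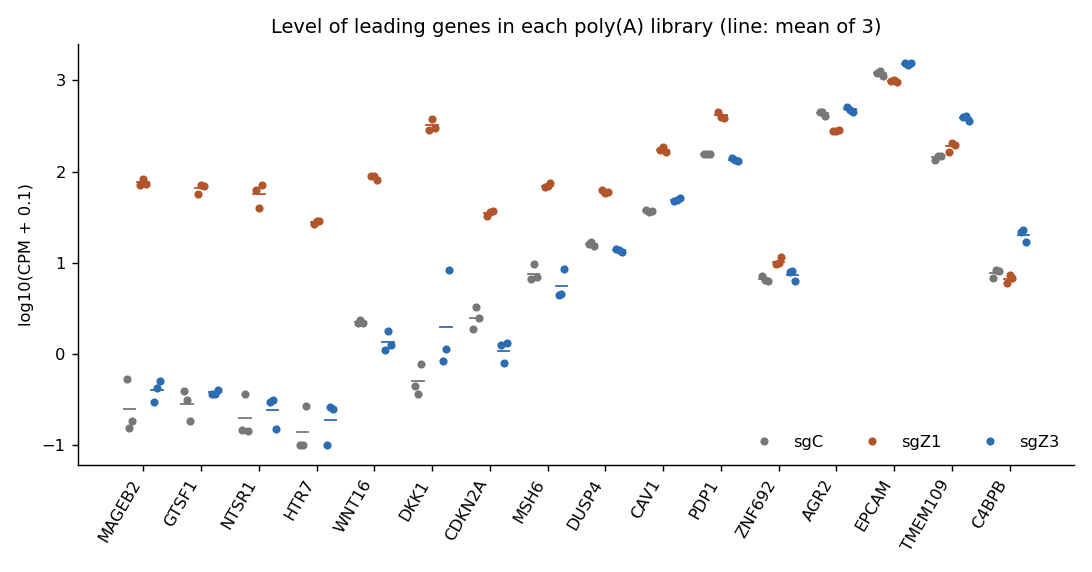
Levels of 16 named genes in each of the 9 poly(A) libraries (log10 of CPM + 0.1), with 1 point for each library of sgC, sgZ1 and sgZ3 and a line at the mean of the 3 log values. MAGEB2, GTSF1, NTSR1, HTR7, WNT16, DKK1, CDKN2A and MSH6 are high in the 3 sgZ1 libraries and low in all others, DUSP4, CAV1 and PDP1 show the same order over a smaller range, and AGR2, EPCAM, TMEM109 and C4BPB are higher in sgZ3 than in sgZ1. ZNF692 varies little.

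Among genes that the MAPK cascade is known to induce, all that differed were higher in sgZ1. Growth factor signals pass through RAS, RAF and MEK to ERK, which switches on immediate-early transcription factors and also phosphatases and inhibitors that damp the cascade. Of 37 such genes tested, 17 were higher in sgZ1, none in sgZ3 and 20 did not pass the test, with a median log2 fold change of −0.439. Of these calls 12 held in each comparison that left out 1 library. In the comparison of 2 against 2 libraries the count was 25 higher in sgZ1 and 3 in sgZ3.

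Among the feedback regulators, 3 of 12 were higher in sgZ1. DUSP4, a phosphatase that switches off ERK, was at 62.8, 58.1 and 59.5 CPM in sgZ1 and 14, 13.9 and 13 CPM in sgZ3, against 16.2, 16.9 and 15.3 CPM in sgC (log2 fold change -2.13, SE 0.12, edgeR adjusted p = 8.91e-07). DUSP5, an ERK phosphatase of the nucleus, was at 73.1, 64.3 and 68.2 CPM and 36.4, 39.5 and 32.2 CPM. SPRY4, an inhibitor acting upstream of ERK, was at 41.2, 30.6 and 38.2 CPM and 16.1, 19 and 20.4 CPM. For all 3 the guides did not overlap. Of the 20 transcription factors, 12 were higher in sgZ1. FOSL1, an AP-1 subunit, was at 39.5, 31.8 and 45.7 CPM and 17.9, 20.4 and 19.3 CPM (log2 fold change -1.01, SE 0.15, edgeR adjusted p = 0.00106). ETV5, an ETS factor, was at 85, 50.1 and 80.2 CPM and 30.4, 28.3 and 32.4 CPM. EGR1, an immediate-early zinc-finger factor, was at 90.9, 65.5 and 92.1 CPM and 39.9, 47.1 and 47.7 CPM. In ETV5, EGR1 and SPRY4 the lowest sgZ1 value was that of replicate 2. Of the 5 other targets, 2 were higher in sgZ1. MYC, the growth-promoting transcription factor, was at 211, 170.0 and 235 CPM and 105, 103 and 125 CPM (log2 fold change -0.87, SE 0.14, edgeR adjusted p = 0.0017), and at 103, 103 and 111 CPM in sgC. MNT and MXI1, which oppose MYC, were also higher in sgZ1, with log2 fold changes of -1.10 and -0.66. They and MYC were the 3 of 12 genes of the MYC network that differed. Of the 12, 2 were higher in sgZ3 and 5 in sgZ1 with 2 against 2 libraries.

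ERRFI1, an inhibitor of the EGF receptor, was at 558, 577 and 489 CPM in sgZ1 and 279, 269.5 and 265 CPM in sgZ3 (log2 fold change -0.98, SE 0.11, edgeR adjusted p = 9.71e-05). It was 1 of the 6 genes with the lowest fold changes among those above 100 CPM in each guide. PDP1, the phosphatase that activates pyruvate dehydrogenase, was the first of these, at 451, 402 and 392 CPM and 139.7, 135 and 130.3 CPM, with sgC at 156, 157 and 157 CPM (log2 fold change -1.61, SE 0.11, edgeR adjusted p = 2.93e-06). ITPRID2 was at 412, 388 and 345 CPM and 119, 112 and 145 CPM. FSCN1, which bundles actin filaments, was at 295, 287 and 319 CPM and 148, 158 and 157 CPM. For PDP1, ITPRID2 and FSCN1 the guides were separated by more than the spread within either. MYH9, a nonmuscle myosin, was at 689.5, 487 and 793 CPM and 253, 278 and 453 CPM, and its call (edgeR adjusted p = 0.022) was lost without replicate 1 or 3 of sgZ1 (0.127 and 0.0936) and without replicate 1 or 2 of sgZ3 (0.11 and 0.126).

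Of 17 caveolar and cytoskeletal genes tested, 5 were higher in sgZ1, 1 was higher in sgZ3 and 11 did not pass the test, at a median log2 fold change of −0.511. CAV1, the coat protein of caveolae, was at 174, 187 and 162 CPM in sgZ1, 47.8, 48.4 and 51.8 CPM in sgZ3 and 38.4, 35.8 and 36.7 CPM in sgC (log2 fold change -1.81, SE 0.11, edgeR adjusted p = 1.77e-06). CAV2, its partner, was at 94.6, 117 and 89.2 CPM and 43, 40.4 and 45.7 CPM. EZR, which links the membrane to actin, was at 748, 614 and 855 CPM and 397, 403 and 517 CPM. TPM1, a tropomyosin, went the other way, at 10.2, 14.6 and 10.03 CPM and 22.3, 20.9 and 25.2 CPM. In 2 against 2 libraries, 13 were higher in sgZ1 and 2 in sgZ3. The mesenchymal marker sums given above also differed between the guides in those 4 libraries. They were at 175 and 209 CPM in sgZ1 and 117 and 123 CPM in sgZ3. The widest difference in CPM among these markers was that of COL6A1, at 31 and 36 CPM in sgZ1 and 0.54 and 0.38 CPM in sgZ3. COL6A2 was next. VIM was low in all 4 libraries, and SPARC was lower in sgZ1 than in sgZ3. Of the 11 markers tested there, 6 were higher in sgZ1 and none in sgZ3. The part of these markers in the caveolar and cytoskeletal count was not tested.

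Genes for extracellular sugar chains differed in both directions, with 7 of 31 genes of hyaluronan and heparan sulfate higher in sgZ3 and 4 higher in sgZ1. The balance turned with 2 against 2 libraries, to 7 higher in sgZ3 and 11 in sgZ1. HAS3, which makes hyaluronan, was at 49.3, 46.7 and 55.3 CPM in sgZ1, 7.15, 5.78 and 7.04 CPM in sgZ3 and 2.202, 2.85 and 2.70 CPM in sgC (log2 fold change -2.91, SE 0.14, edgeR adjusted p = 4.84e-07). HYAL2, which cuts hyaluronan, went the other way, at 127, 174 and 146 CPM and 245, 243 and 216 CPM (log2 fold change 0.67). HS6ST2, a sulfotransferase of heparan sulfate, was at 16.6, 17 and 16.4 CPM and 0.337, 0.216 and 0.912 CPM, and HS3ST1, another, was at 108, 125 and 126 CPM and 38.5, 37.9 and 36.8 CPM. HPSE, the enzyme that cuts heparan sulfate, and SDC1, a syndecan that carries it, were higher in sgZ3, with log2 fold changes of 0.59 and 0.72. The 13 tested genes of heparan sulfate chains and sulfation were split, with 2 higher in each derivative and a median log2 fold change of 0.121. All of the genes named here kept their calls under every alternative.

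Of 21 tight junction genes tested, 10 were higher in sgZ3, 1 in sgZ1 and 10 did not pass the test, with a median log2 fold change of 0.383. EPCAM, an adhesion protein of epithelia, was at 996, 1023 and 957 CPM in sgZ1 and 1549.8, 1482 and 1545 CPM in sgZ3 (log2 fold change 0.63, SE 0.09, edgeR adjusted p = 0.000806). The claudins CLDN3 and CLDN4, which seal the space between cells, had log2 fold changes of 0.74 and 0.65. The exception was ESRP1, a splicing factor of epithelial cells, at 80.7, 70.7 and 81.2 CPM and 15.7, 18.5 and 15.8 CPM, with sgC between them at 29.2, 30.2 and 28 CPM (log2 fold change -2.204, SE 0.13, edgeR adjusted p = 1.2e-06). Of 11 genes of adherens junctions and desmosomes, 1 was higher in each derivative, and none of 12 genes of adhesion to the basement membrane passed edgeR's test, although 2 had an unadjusted p below 0.05. DESeq2 called 1 of these 12, higher in sgZ1, and limma voom 0, and with 2 against 2 libraries 7 were higher in sgZ1. Without the libraries that stood apart, the tight junction count was 12 against 4, and that of adherens junctions and desmosomes was 1 higher in sgZ3 and 6 in sgZ1. Of the 13 calls among junction and adhesion genes, 8 held in each comparison that left out 1 library.

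Of 11 secretory genes of the intestine, 4 were higher in sgZ3 and none in sgZ1, with a median log2 fold change of 0.452. AGR2, a disulfide isomerase that mucin secretion needs, was at 281, 277 and 284 CPM in sgZ1 and 514, 478 and 455 CPM in sgZ3 (log2 fold change 0.79, SE 0.10, edgeR adjusted p = 0.000335). REG4, a lectin of enteroendocrine cells, was low in both, at 1.21, 0.940 and 0.983 CPM and 4.72, 3.35 and 2.63 CPM. TFF1, a trefoil peptide secreted with mucus, was at 4.01, 6.78 and 5.95 CPM and 11.9, 13.6 and 9.63 CPM. None of the 13 transcription factors of intestinal identity passed edgeR's test, although 2 had an unadjusted p below 0.05. DESeq2 called 1, higher in sgZ1, and limma voom 0, and with 2 against 2 libraries 4 were higher in sgZ1. CDX2, the best known of them, was at 180.0, 179 and 194 CPM and 213, 219 and 215 CPM. Of 11 absorptive markers, 3 were higher in sgZ3, and their median of 0.147 turned to −0.0571 without the libraries that stood apart, with 3 higher in each derivative. There the secretory count was 5 higher in sgZ3 and 1 in sgZ1. AGR2, REG4 and TFF1 were the intestinal genes whose calls held in each comparison that left out 1 library.

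Class I antigen presentation genes, which display peptides to T cells, were often higher in sgZ3. Of 18 tested, 12 were higher in sgZ3 and none in sgZ1, with a median log2 fold change of 0.433, against 9.17% and 12% of all genes. TAP1, which pumps peptides into the endoplasmic reticulum, was at 158, 209.5 and 179.7 CPM in sgZ1 and 322, 303 and 280.1 CPM in sgZ3 (log2 fold change 0.74, SE 0.13, edgeR adjusted p = 0.00257). Of the 13 calls among class I and class II genes, 2 held in each comparison that left out 1 library, TAP1 and HLA-DRB1, a class II chain higher in sgZ1 at about 1 CPM. With library totals, 6 of the 18 class I genes were higher in sgZ3, and without the libraries that stood apart 13 were higher in sgZ3 and 1 in sgZ1.

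Of 15 chemokines and cytokines tested, 6 were higher in sgZ3, none in sgZ1 and 9 did not pass the test, with a positive fold change for all 15 (median 0.483). CXCL1, a neutrophil attractant, was at 45.2, 48 and 45.9 CPM in sgZ1 and 75.1, 75.4 and 62.8 CPM in sgZ3 (log2 fold change 0.63, SE 0.12, edgeR adjusted p = 0.00445). CXCL2, its close relative, was at 17.6, 22.1 and 16.3 CPM and 36.7, 33.9 and 27.9 CPM. IL32, a cytokine, was at 11.6, 13.1 and 11 CPM and 23.5, 23 and 17.8 CPM. Their calls held under every alternative. With 2 against 2 libraries, 10 were higher in sgZ3 and none in sgZ1. Of the 13 genes of the NF-kappaB pathway itself, 2 were higher in sgZ3 and 3 in sgZ1, and 3 and 4 with 2 against 2 libraries. NFKBIB, an inhibitor of NF-kappaB, was at 29.2, 30.2 and 34.4 CPM and 18.8, 18.4 and 19.6 CPM. Of 28 interferon-stimulated genes, 7 were higher in sgZ3 and 2 in sgZ1, and none of these calls held in every comparison that left out 1 library. Without the libraries that stood apart 11 were higher in sgZ3 and 9 in sgZ1.

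**Figure D4:**
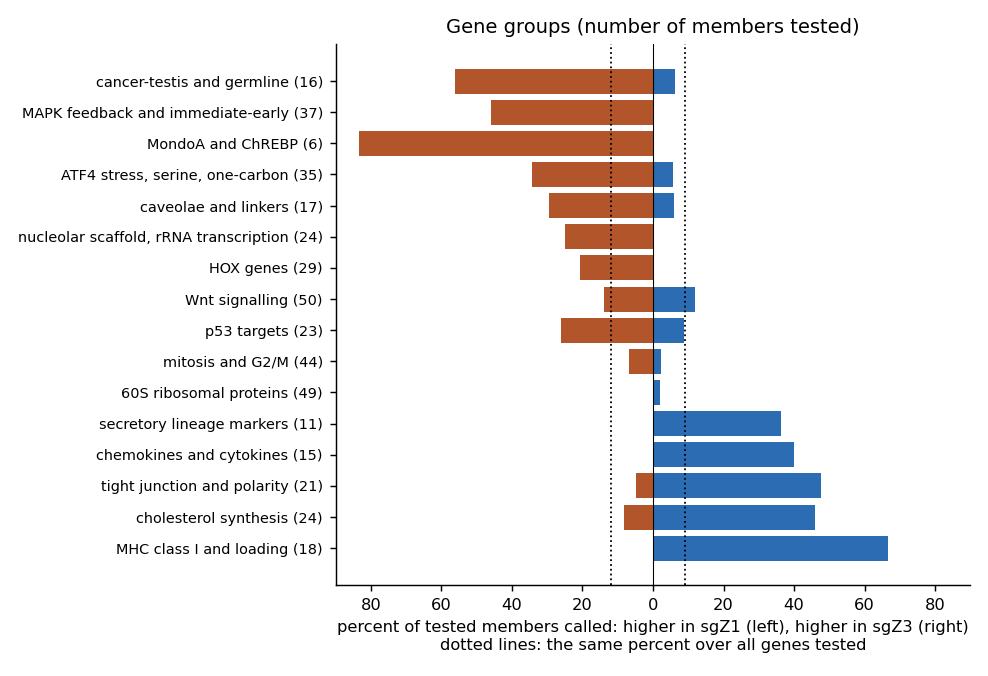
For 16 groups of genes, bars to the left give the percent of tested members higher in sgZ1 and bars to the right the percent higher in sgZ3 at an adjusted p below 0.05, in edgeR's test of 3 against 3 libraries. Dotted lines mark the percent over all genes tested, 12% and 9.17%. The MAPK, cancer-testis and MondoA and ChREBP groups extend to the left, and the class I antigen presentation, tight junction, cholesterol and chemokine groups to the right.

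Of 24 cholesterol synthesis genes tested, 11 were higher in sgZ3, 2 in sgZ1 and 11 did not pass the test, with a median log2 fold change of 0.407. DHCR7, an enzyme of the last steps, was at 444, 522 and 521 CPM in sgZ1 and 739, 781 and 742 CPM in sgZ3 (log2 fold change 0.62, SE 0.10, edgeR adjusted p = 0.00229). MVD, an enzyme of the mevalonate steps, was higher in sgZ1, at 51.9, 53.9 and 59 CPM and 37.1, 36.7 and 33.6 CPM (log2 fold change -0.60). In 2 against 2 libraries, 16 were higher in sgZ3 and 2 in sgZ1. Of fatty acid genes, 1 of 14 was higher in sgZ3 and 3 were higher in sgZ1 (1 and 7 with 2 against 2 libraries), and 8 of the 17 calls of both groups held in each comparison that left out 1 library. FADS1, which desaturates long fatty acids, was at 40.5, 39.4 and 39.4 CPM and 13.2, 9.40 and 16.4 CPM (log2 fold change -1.60, SE 0.18, edgeR adjusted p = 0.000131), and FASN, the fatty acid synthase, was at 1416, 1228 and 1511 CPM and 874, 958 and 973 CPM. ELOVL5, an elongase, was at 51.2, 59.9 and 41.9 CPM and 1.55, 1.62 and 8.36 CPM, and its call (edgeR adjusted p = 0.0206) was lost with no filter on low counts (0.0596), with the replicate number as a block (0.156), without replicate 1 of sgZ1 (0.104) and without replicate 1 or 2 of sgZ3 (0.095 and 0.0798).

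MondoA and ChREBP are transcription factors that respond to glucose inside the cell. In a group that holds genes of these factors and of their targets, 5 of 6 tested were higher in sgZ1. The median log2 fold change of the group was −0.73. All 6 differed with 2 against 2 libraries, 5 higher in sgZ1 and 1 in sgZ3. TXNIP, which restrains glucose uptake, was at 301, 261 and 269.8 CPM in sgZ1 and 149.8, 159.7 and 143 CPM in sgZ3 (log2 fold change -0.86, SE 0.11, edgeR adjusted p = 0.00034). In sgC it was higher than in both, at 715, 592 and 572 CPM. MLXIPL, which encodes ChREBP, was at 5.12, 2.94 and 7.13 CPM and 0.742, 1.24 and 0.709 CPM, and ARRDC3, an arrestin relative of TXNIP, was at 18.7, 15.2 and 13.4 CPM and 7.83, 8.16 and 9.42 CPM. Glycolytic genes were split, with 3 of 25 higher in sgZ3 and 4 in sgZ1 (10 and 7 with 2 against 2 libraries). ALDOC, an aldolase, was at 32.3, 27.6 and 34.1 CPM and 3.78, 5.03 and 4.10 CPM (log2 fold change -2.85, SE 0.16, edgeR adjusted p = 1.14e-06), while the glucose transporter SLC2A3 had a log2 fold change of 0.75. ALDOA was listed at 2.21 to 2.33 CPM in sgZ1 and at most 0.202 CPM in sgZ3, far too low for this abundant enzyme, and its value is not read as its expression. BNIP3, a mitochondrial protein induced by hypoxia, was at 26.3, 28.4 and 22.9 CPM and 2.02, 1.13 and 2.28 CPM (log2 fold change -3.82, SE 0.23, edgeR adjusted p = 1.52e-06). P4HA2, a collagen prolyl hydroxylase of the same list, went the other way, with a log2 fold change of 0.60. Of the 17 calls in these lists, 9 held in each comparison that left out 1 library.

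Amino acid stress genes were more often higher in sgZ1. ATF4 is the transcription factor that cells use to raise amino acid transport and synthesis under shortage. Of its 35 listed genes that were tested, 12 were higher in sgZ1 and 2 in sgZ3, with a median log2 fold change of −0.272, and 16 against 5 without the libraries that stood apart. STC2, a secreted stress glycoprotein, was at 28, 24.2 and 32.7 CPM in sgZ1 and 1.69, 0.865 and 3.85 CPM in sgZ3 (log2 fold change -3.69, SE 0.41, edgeR adjusted p = 0.000538). SLC7A11, the cystine transporter, was at 106, 74.9 and 83.4 CPM and 48.4, 42.5 and 58 CPM, and MTHFD2, a mitochondrial enzyme of folate metabolism, was at 519, 492 and 455 CPM and 311, 280.0 and 274 CPM. For both, sgC was nearer to sgZ1, at 126, 121 and 137 CPM for SLC7A11 and 547, 542 and 507 CPM for MTHFD2. These 3 genes were the calls of the list that held in each comparison leaving out 1 library. Genes of the unfolded protein response, which serves the endoplasmic reticulum, had 5 of 24 higher in sgZ3 and none in sgZ1 (median 0.259), and 11 and 5 with 2 against 2 libraries. PDIA6, a disulfide isomerase, was at 662, 799.9 and 665 CPM and 1045, 990.5 and 1058 CPM, and MANF, a secreted stress protein, was at 128, 146 and 136 CPM and 211, 203 and 186 CPM. Of 25 heat-shock and chaperone genes of the cytosol, 2 were higher in sgZ3 and none in sgZ1 (median 0.0176), and 8 and 7 with 2 against 2 libraries. The share that differed was 8%, below the 21.2% of all genes tested. HSPA8, the constitutive HSP70 chaperone and 1 of the 2, was at 1610.1, 2115 and 1626 CPM and 3067, 2777 and 2831 CPM (log2 fold change 0.71, SE 0.12, edgeR adjusted p = 0.00252).

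Of 28 NRF2 targets and detoxification genes, 4 were higher in sgZ3 and 2 in sgZ1, and 11 and 4 with 2 against 2 libraries. The share that differed was 21.4%, near the 21.2% of all genes tested. ABCC2, a pump that exports conjugated compounds, was at 31.5, 28.6 and 33 CPM in sgZ1 and 1.08, 0.486 and 0.405 CPM in sgZ3, with sgC at 0.734, 0.753 and 0.643 CPM (log2 fold change -5.59, SE 0.27, edgeR adjusted p = 3.94e-07). UGT1A6, an enzyme that makes such conjugates, went the other way, at 15.1, 16.3 and 14.3 CPM and 31.4, 26.5 and 26.9 CPM. PRPS1, which starts nucleotide synthesis, was at 80.2, 98.4 and 83.6 CPM and 44.4, 42.3 and 45.5 CPM and was the 1 gene of 27 for polyamine and nucleotide synthesis that was higher in sgZ1. In 2 against 2 libraries 9 of these 27 were higher in sgZ3 and 3 in sgZ1. The calls of ABCC2, UGT1A6 and PRPS1 held under every alternative.

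The 12 largest increases in sgZ3 among genes above 10 CPM ran from a log2 fold change of 1.10 (IGFL2) to 1.63 (C4BPB). C4BPB, the beta chain of a complement inhibitor, was at 5.96, 7.19 and 6.74 CPM in sgZ1 and 21.6, 22.7 and 16.8 CPM in sgZ3, with sgC at 6.71, 8.34 and 7.97 CPM (log2 fold change 1.63, SE 0.17, edgeR adjusted p = 7.11e-05). IL1R2, a decoy receptor for interleukin-1, was at 13.6, 19.4 and 16 CPM and 39.7, 36.3 and 32.8 CPM. MFSD2A, a lipid transporter, was at 12.9, 15.9 and 14.4 CPM and 33.1, 32.7 and 31.8 CPM. In all of these sgC lay near sgZ1, at 18.5, 20.3 and 21.2 CPM for IL1R2 and 10.7, 12.9 and 11.6 CPM for MFSD2A. NPTX2, a neuronal pentraxin, ICAM2, an adhesion protein, PCP4, a calmodulin regulator, and OLFML3, a secreted olfactomedin, had log2 fold changes of 1.17, 1.15, 1.14 and 1.13, and none of the 4 lost its call under any alternative.

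EBPL, a relative of the sterol isomerase EBP, was at 119, 129 and 139 CPM in sgZ1, 331, 389.6 and 199 CPM in sgZ3 and 193, 212 and 127 CPM in sgC. Replicate 3 was the lowest in sgZ3 and in sgC. Among the other genes above 100 CPM in each guide, TMEM109, a membrane protein of the endoplasmic reticulum, was at 164, 207 and 199 CPM and 396, 404 and 363 CPM (log2 fold change 1.04, SE 0.12, edgeR adjusted p = 0.000164). GDPD3, a lysophospholipase, was at 98, 136 and 115 CPM and 260.2, 255 and 199.8 CPM, and TSPAN8, a tetraspanin of gut epithelium, was at 109, 139 and 111 CPM and 240.3, 221 and 223 CPM. SLC5A6, the biotin and pantothenate transporter, was at 99.3, 139.6 and 108 CPM and 227, 217 and 200.4 CPM. For the genes of this paragraph the calls held under every alternative. CRLS1, TXNDC5, TMEM238 and IGFL2 were also among the 12 highest fold changes, with log2 values of 1.24, 1.21, 1.12 and 1.10, and lost their calls without 1 or more single libraries, with edgeR adjusted p of at most 0.113. TXNDC5 overlaps the readthrough gene BLOC1S5-TXNDC5, so reads of their shared exons may not have been counted, and its value is not read as its expression.

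Among the genes near ZNF692 and the metabolic genes it was first linked to, no call held in each comparison that left out 1 library. Of 5 tested neighbours at the end of the long arm of chromosome 1, 1 was higher in sgZ3, the zinc-finger gene ZNF672 at 32.2, 37.6 and 33.3 CPM in sgZ1 and 49.5, 44 and 41.1 CPM in sgZ3 (edgeR adjusted p = 0.0455), and this call was lost under several alternatives, with an adjusted p of at most 0.236. Of the 5, 2 were higher in each derivative with 2 against 2 libraries. Gluconeogenesis makes glucose from smaller molecules, and AREBP was named for binding at the promoter of one of its enzymes. Of 5 such genes tested, 2 were higher in sgZ3 and none in sgZ1, beside 9.17% and 12% of all genes tested. FBP1, an enzyme of the pathway, was at 27.2, 36.3 and 35.2 CPM and 52.2, 53.9 and 37.4 CPM, and G6PC3, a phosphatase, was at 68.1, 71.6 and 82.3 CPM and 110.4, 111 and 98.8 CPM. Neither call held in every comparison that left out 1 library, and the count with 2 against 2 libraries was 3 higher in sgZ3 and 2 in sgZ1.

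Keratins, S100 proteins and annexins were split, with 7 of 22 higher in sgZ3 and 3 in sgZ1, and 11 and 3 with 2 against 2 libraries. KRT23, a type I keratin, was at 2.93, 2.29 and 2.51 CPM in sgZ1 and 0.135, 0 and 0.0507 CPM in sgZ3. It and ANXA10 were the members whose calls held in each comparison that left out 1 library. Both passed the filter on low counts only through the sgZ1 libraries, so their direction was set by the filter and the held calls add no support. Of 34 genes of TGF-beta and BMP signalling, 7 were higher in sgZ3 and 3 in sgZ1, and with 2 against 2 libraries the majority turned, to 8 higher in sgZ3 and 10 in sgZ1. BMP7, a ligand, was at 5.96, 2.98 and 5.02 CPM and 1.75, 0.594 and 0.659 CPM (log2 fold change -2.24, SE 0.40, edgeR adjusted p = 0.00326), while BAMBI, a decoy receptor that blocks the pathway, was at 69.6, 81.1 and 77.6 CPM and 118, 127 and 109 CPM (log2 fold change 0.65). PAX2, a kidney transcription factor in the list of markers of lentivirus packaging cells, was at 2.61, 1.47 and 2.95 CPM and 0.135, 0.0540 and 0.0507 CPM, and was the 1 of 4 tested markers that differed, against 3 higher in sgZ1 with 2 against 2 libraries. Summed over the 10 listed, those markers were at 116 to 151 CPM in sgZ1 and 129 to 145 CPM in sgZ3, with NEFM and SALL3 at 0 in all 6 libraries.

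Among proliferation genes, 11.6% of those for DNA replication and the G1/S transition and 9.09% of those for mitosis differed, beside 21.2% of all genes. Of the 43 tested genes of replication and G1/S, 2 were higher in sgZ3 and 3 in sgZ1 (median 0.0261), and of 44 genes of mitosis 1 and 3 (median 0.044). Both medians turned negative with library totals, to −0.096 and −0.0754. The counts with 2 against 2 libraries were 15 higher in sgZ3 and 9 in sgZ1 for G1/S, and 13 and 15 for mitosis. CDT1, which licenses replication origins, was at 86.6, 77.3 and 100.5 CPM in sgZ1 and 47, 53.3 and 44.7 CPM in sgZ3 (log2 fold change -0.85, SE 0.13, edgeR adjusted p = 0.00149). Of 23 p53 targets, 2 were higher in sgZ3 and 6 in sgZ1 (5 and 10 with 2 against 2 libraries), and 1 of these calls, that of the kinase PLK3 at 12.9, 14.8 and 14 CPM and 7.35, 7.78 and 6.89 CPM, held in each comparison that left out 1 library.

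Genes of ribosomal proteins had small positive fold changes and few calls. A ribosome is built in the nucleolus from ribosomal RNA and the proteins of a small (40S) and a large (60S) subunit, and mitochondria hold ribosomes of their own. The log2 fold change was positive for all 33 tested proteins of the 40S subunit (median 0.298) and for 48 of 49 of the 60S subunit (median 0.247), while 1 of each differed by the test. Of 68 mitochondrial ribosomal proteins 4 were higher in sgZ3 (median 0.258), and of 68 subunits of the respiratory chain 1 (median 0.299). None of these calls held in each comparison that left out 1 library. Without the libraries that stood apart, 32 of the 40S and 45 of the 60S proteins were higher in sgZ3, as were 52 of the mitochondrial ribosomal proteins and 57 of the respiratory chain subunits, against 1 of the 60S and 2 of the mitochondrial ribosomal proteins higher in sgZ1. Ribosomal proteins have many near-identical pseudogenes among which reads may be split.

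Assembly factors of the ribosome had medians slightly below 0. Of 52 tested factors of the small subunit, 1 was higher in sgZ3 and 4 in sgZ1 (median −0.0318), and of 51 of the large subunit, 1 and 6 (median −0.105). These counts were 10 and 15, and 7 and 17, with 2 against 2 libraries. Among 24 genes of the nucleolar scaffold and of ribosomal RNA transcription, 6 were higher in sgZ1 and none in sgZ3 (median −0.165), and none of the 6 held in every comparison that left out 1 library. In 2 against 2 libraries 6 were higher in sgZ3 and 11 in sgZ1. KRR1, a factor of the small subunit, was at 62.9, 55.4 and 54.1 CPM in sgZ1 and 28.1, 27 and 37.3 CPM in sgZ3 (log2 fold change -0.89, SE 0.14, edgeR adjusted p = 0.00177). URB2, a factor of the large subunit, went the other way, at 48, 59.2 and 50.2 CPM and 86.7, 79 and 79.1 CPM. PWP2, another small-subunit factor with a near-identical copy, was at 6.52, 6.86 and 7.33 CPM and 0.607, 1.08 and 1.01 CPM.

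The median fold change was lower in classes of longer genes. With genes divided into 5 equal classes by summed exon length, the median log2 fold change, from shortest to longest, was 0.151, 0.082, 0.0106, −0.0592 and −0.157. In the shortest class of 2846 genes, 303 were higher in sgZ3 and 216 in sgZ1, and in the longest, also 2846, 143 and 419, so most genes of both did not differ. Without the libraries that stood apart, the first and last medians were 0.267 and −0.324. Gene length and GC content were also entered into the fit as offsets. These offsets were fitted to the trends of the same 6 libraries, so the medians of the length classes were bound to come near 0. The first and last were then 0.0192 and −0.0222, and the medians of the 40S and 60S proteins became 0.17 and 0.162. In that fit 12.9% of all genes were higher in sgZ3 and 14.9% in sgZ1. The class I antigen presentation count was there again 12 against 0, that of MAPK transcription factors 14 higher in sgZ1 and none in sgZ3, and that of tight junction genes 13 against 1. Replication-dependent histone genes, whose transcripts normally lack a poly(A) tail, were the shortest group. Their log2 fold change was positive for all 15 tested (median 0.745), and 4 differed, all higher in sgZ3. With 2 against 2 libraries 11 of 14 were higher in sgZ3 and none in sgZ1. H2BC12, a histone H2B, was at 33.2, 36.3 and 34.7 CPM and 66.2, 63.3 and 45.3 CPM.

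The direction also went with the level. With 5 equal classes of mean level, in the lowest 48 were higher in sgZ3 and 592 in sgZ1 (median −0.212), and in the highest 537 and 109 (median 0.17). In the highest of 5 classes of GC content 22.2% of genes were higher in sgZ1. Across chromosomes, 19 had the lowest median (−0.13) and the largest share of genes higher in sgZ1 (198 of 956, 20.7%), and 21 the highest median (0.113). Of 154 windows of 20 Mb with at least 20 tested genes, medians ran from −0.299 to 0.214. The lowest lay at 120 to 140 Mb on chromosome 8, with 14 of 49 genes higher in sgZ1 and 2 in sgZ3, and the next at 100 to 120 Mb on chromosome 10, with 32 of 118 and 2.

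Genes named ZNF and a number, most of which encode C2H2 zinc-finger proteins like ZNF692, were added as a group after the chromosome values were seen. Of 407 tested, 56 were higher in sgZ1 and 8 in sgZ3, with a median log2 fold change of −0.231. With 2 against 2 libraries 180 of 404 were higher in sgZ1 and 24 in sgZ3. The median was −0.212 for the 174 on chromosome 19 and −0.24 for the 233 elsewhere. The share higher in sgZ1 was 13.2% and 14.2%, close to the 12% of all genes, whereas 22.4% of the 782 other genes on chromosome 19 were higher in sgZ1. ZNF134 on chromosome 19 was at 7.96, 8.25 and 7.47 CPM in sgZ1 and 0.405, 0.486 and 0.811 CPM in sgZ3, with sgC at 0.538, 0.699 and 0.986 CPM (log2 fold change -3.74, SE 0.25, edgeR adjusted p = 2.87e-06). ZNF512 on chromosome 2 was at 5.31, 5.31 and 5.46 CPM and 0.202, 0.324 and 0.456 CPM. Of the 64 calls, 19 held in each comparison that left out 1 library, all of them higher in sgZ1.

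**Figure D5:**
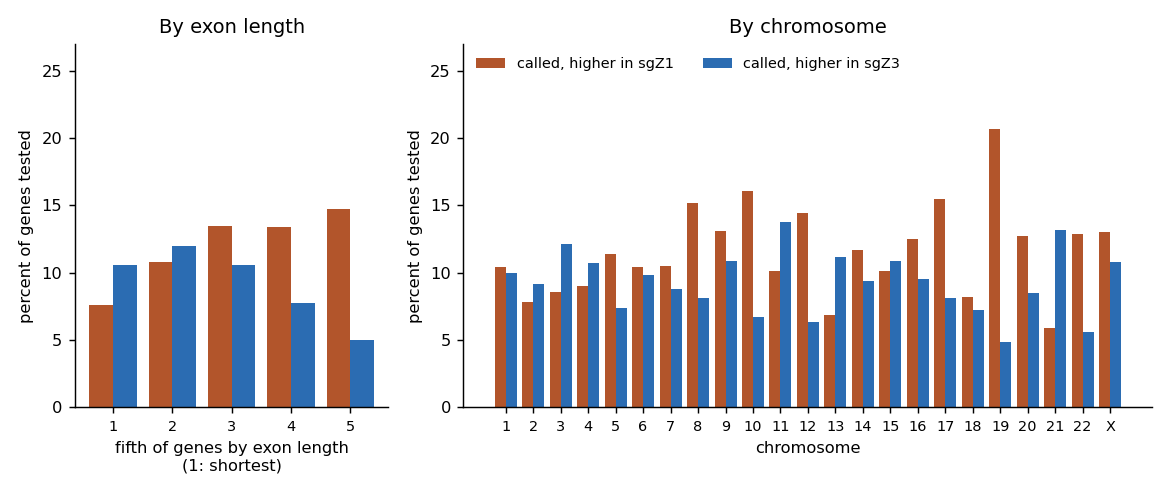
Percent of tested genes higher in sgZ1 and higher in sgZ3 at an adjusted p below 0.05, by 5 equal classes of summed exon length (left, shortest to longest) and by chromosome (right). The share higher in sgZ1 goes from 7.59% in the shortest class to 14.7% in the longest while the share higher in sgZ3 goes from 10.6% to 5.02%, and chromosome 19 has the largest share higher in sgZ1.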

How the data were processed

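The values are raw counts, whole numbers of reads assigned to each gene, as deposited by the authors. Per the submitters' processing notes, the tools were HTSeq, DESeq2, SAMtools 1.9 and STAR 2.5.2b, and the genome was GRCh38 (hg38); their roles are not stated. Neither strand setting nor annotation release is stated, so reads of antisense or overlapping genes may be shared or dropped. Titles gave each library its guide and replicate number, and each column was matched by title (0 columns unused). The ribosomal RNA libraries were not analysed here.

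Genes passing filterByExpr in the 6 libraries were fitted with edgeR 4.0.16 (quasi-likelihood, robust, TMM factors, group as the only term, Benjamini-Hochberg over all 14335 genes tested) in R 4.3.3, after the same script was tested on simulated data. The biological coefficient of variation was 15%. Printed CPM use TMM factors of all 9 libraries. Annotation came from GENCODE 29 (GRCh38), which held 99.2% of the genes tested, and promoters from RefSeq.

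The 48 gene lists and the members were chosen with earlier results of these data known, and the ZNF group after the values were seen. Named genes are ZNF692, the 12 highest and 12 lowest fold changes among genes that differed, did not overlap and had a mean of at least 10 CPM, the 6 highest and 6 lowest above 100 CPM in each guide, up to 6 of the genes present in 1 guide and near 0 in the other, and up to 4 of each list and role by adjusted p. Alternatives were other scaling factors, other filters, all 9 libraries, DESeq2 1.42.0, limma 3.58.1 (voom), a replicate block, length and GC offsets, each library left out, and 2 against 2 libraries. Some genes that the naming rule or the lists hold are not reported here by name, and counts over lists include them.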

Additional observations from a re-analysis of the deposited data

How the results depend on the processing

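No gene tested turned from a call in one direction to a call in the other under any alternative. The number of genes that differed stayed between 2871 (limma voom) and 4209 (all 9 libraries in the fit) in the alternatives that kept all 6 libraries, against 3033. With 2 against 2 libraries it was 7829, and leaving out 1 library gave 1262 to 5020. The count at least 2-fold different, 974, became 1801 with 2 against 2 libraries and ran from 712 to 1416 when 1 library was left out. Of all 3033 genes that differed, 43.3% were higher in sgZ3. This share became 34% with upper-quartile factors, 41.1% with RLE factors, 25% with library totals, 39.2% with no filter, 46.5% with length and GC offsets, 46.4% with 2 against 2 libraries, and 30.5% to 44.5% when 1 library was left out. The log2 fold change of ZNF692, sgZ3 against sgZ1, passed the threshold with upper-quartile factors (−0.52), library totals (−0.5853), all 9 libraries (−0.475), length and GC offsets (−0.4763) and 2 against 2 libraries (−0.4051). The 112 genes present in sgZ1 and near 0 in sgZ3 became 46 with limits of 5 and 0.5 CPM, 56 with limits of 2 and 0.25 CPM and 196 with 2 against 2 libraries, and the count the other way was 0 each time. The cause of these changes was not tested. With the replicate number as a block 3620 genes differed and 40.4% were higher in sgZ3. The labels do not say that the replicate number pairs libraries, so the numbers were not used to pair them. Deviations of libraries of the same number had correlations of −0.148, 0.0428 and −0.0654. Each deviation is from a mean of only 3 libraries, so these values cannot decide whether the numbers pair. Of the 235 named genes, 119 kept their call under every alternative run. No pair of replicates agreed within counting noise. The pairs kept in 2 against 2 libraries were the closest (chi-square per degree of freedom 10.4 in sgZ1 and 4.5 in sgZ3, against 25.8 to 33.1 for the others), so its p-values rest on a smaller spread.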
